A study of Mus musculus with 6 samples.

Results

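COPI and COPII are the protein coats of the vesicles that move cargo between the endoplasmic reticulum (ER) and the Golgi apparatus. The 44 genes described here encode these coats, the receptors that load cargo into them, and part of the machinery that lets the vesicles fuse. They were selected by gene symbol from the 22298 genes of the table, all 44 were found, and all 44 passed the filter on low counts that left 12747 genes for testing. The list was chosen with earlier results of these data known. Shares of members set beside shares of all genes are therefore a description and not a test. There are 13 COPII genes, 12 COPI genes, 14 cargo and retrieval receptors, and 5 SNAREs and tethers. The measurements come from RNA-seq of MIN6 cells, a mouse insulinoma line used as a model of the pancreatic β-cell, in a control group of 3 samples and a group of 3 samples after chronic epinephrine exposure. In the experiment, chronic exposure meant 100 nM epinephrine for 3 days and then 2 days of withdrawal, and the day of RNA collection for sequencing is not given in the sources used here, so it is not known whether these samples had gone through withdrawal. MIN6 is a single transformed line, derived from an insulinoma of mice that carried a viral T antigen transgene, and both groups share this origin. The study's methods describe its data in general as coming from biological replicates. Neither they nor the labels say how the cultures of the sequenced samples were kept apart, and the p-values measure the spread between these samples. The comparison asks whether the transcript levels of the transport machinery differed between the 2 groups, and in which coat.

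A COPII vesicle forms at an ER exit site when an exchange factor loads the GTPase Sar1 with GTP, Sar1 recruits the inner coat of Sec23 and Sec24, and an outer cage of Sec13 and Sec31 assembles on it. Sec24 and the receptors select the cargo, which in β-cells includes proinsulin on its way to secretory granules. COPI vesicles carry material back to the ER and between Golgi cisternae. Their coat, the coatomer, is recruited by Arf GTPases, and it retrieves escaped ER proteins through the KDEL receptors. Several of these genes are known targets of the unfolded protein response, which enlarges the secretory pathway when unfolded proteins accumulate in the ER.

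The values are reads per gene as estimated (expected) counts, which were scaled by library total and the TMM factor to CPM, counts in each 1000000, for comparisons between samples. Fold changes and their standard errors (SE) come from edgeR, and p-values were adjusted over all genes tested after Benjamini and Hochberg and are given as FDR, with 0.05 as the threshold. The 3 control libraries held 15017065 to 17457583 counts and the 3 epinephrine libraries 15256957 to 18127171, so a level of 3 counts equals 0.168 to 0.198 CPM. Every member was well above that level.

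Some features of the libraries touch the results. Control 1 stood apart from the other 5 samples, with a score of -38.9 on the first principal component (44.6% of the variance) against -2.37 and -0.524 for controls 2 and 3 and 12.4 to 15.9 for the epinephrine samples. Controls 2 and 3 held transcripts of hepatocytes, with Alb (albumin) at 33.9 and 82.3 CPM against 0.194 CPM in control 1 and 0.297 to 0.448 CPM after epinephrine. The summed level of the 11 hepatocyte markers other than Ttr was 51.9, 102 and 187 CPM in controls 1 to 3 and 39.9 to 40.8 CPM after epinephrine. Hnf4a (27.3 to 34.8 CPM in the controls and 22.0 to 25.6 CPM after epinephrine) was present in every sample. So was Tat (10.7 to 12.0 CPM and 10.5 to 11.8 CPM). These 2 genes made up most of the sum in control 1 and after epinephrine, but not in control 3. Ttr, which islet cells also express, was summed apart, at 837 to 1334 CPM in the controls and 1556 to 1744 CPM after epinephrine (log2 fold change 0.61, FDR 0.0896), and with it the list summed to 889 to 1521 CPM and 1596 to 1784 CPM. The part of these transcripts in the results below was not tested. Islet markers also differed between the groups. All 12 β-cell markers were expressed, of which Slc2a2 (log2 fold change -0.76, FDR 0.00434) and Ins1 (-0.50, FDR 0.0152) fell, and Ins1 and Ins2 together took 2.81 to 3.98% of the control counts and 3.31 to 3.46% of those after epinephrine. Of the markers of other islet cells, Gcg (glucagon) was at 175 to 212 CPM in the controls and 377 to 409 CPM in the epinephrine samples (log2 fold change 1.02, FDR 0.00199), Sst was at most at 1.00 CPM, and Hhex, Ppy and Ghrl did not pass the filter. Of the other lists, none of the 10 exocrine markers passed the filter (at most 1.31 CPM summed), fibroblast markers summed to 4.34 to 26.2 CPM and 2.05 to 25.6 CPM, and leukocyte markers to 1.14 to 3.56 CPM and 3.47 to 4.39 CPM. Of the 10 leukocyte markers only Cd68 (0.343 to 0.712 CPM and 2.13 to 3.38 CPM) and Csf1r (log2 fold change -0.32, FDR 0.786) passed the filter. Cd68 was upregulated and made up most of the sum after epinephrine, and the defining marker Ptprc was at most at 0.119 CPM. In bulk RNA, a change in the number of cells of a type and a change in RNA per cell cannot be told apart.

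Of the 44 members, 5 were upregulated at an FDR under 0.05, and all 5 were receptors: Kdelr3, Tmed3, Mcfd2, Lman1 and Tmed10. That is 11.4% of the members, beside 2.02% of all genes tested. No member was downregulated, beside 0.612% of all genes, and none was lower at an unadjusted p under 0.05 in edgeR (7.91% of all genes) or at an FDR under 0.05 in DESeq2 (1.98%). Kdelr3 and Tmed3 also passed a change of at least 2-fold, beside 0.722% of all genes that passed it in either direction. At an unadjusted p under 0.05, 20 members were higher (9.19% of all genes). The 3 epinephrine samples all lay above the 3 controls for 25 members, or 56.8%, beside 14.3% of all genes, and no member had all 3 epinephrine samples below the controls (13% of all genes). The fitted log2 fold change was above 0 for 39 members, or 88.6%, beside 49.5% of all genes. The exceptions were Sec24c, Sec31a, Copg2, Gbf1 and Gosr2.

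Over the members the log2 fold change had a median of 0.20, beside -0.00 over all genes tested. By group it was 0.26 for the receptors, 0.24 for SNAREs and tethers, 0.19 for COPI and 0.17 for COPII. The order of the groups depended on the setting. In the same sequence the medians were 0.31, 0.19, 0.18 and 0.23 without control 1. They were 0.19, 0.20, 0.11 and 0.14 when each sample was corrected for the length and GC content of transcripts. Relative to the control mean on the log2 scale, the median member lay at 0.03, -0.05 and 0.01 in the controls and at 0.22, 0.18 and 0.22 in the epinephrine samples, and the groups did not overlap in this value. The plot of members by sample shows the same for the receptors, with medians of -0.00, -0.02 and 0.01 in the controls and 0.27, 0.27 and 0.32 after epinephrine. The COPII genes were less even, because control 1 had a median of 0.13, close to the 0.17, 0.13 and 0.20 of the epinephrine samples.

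**Figure D1:**
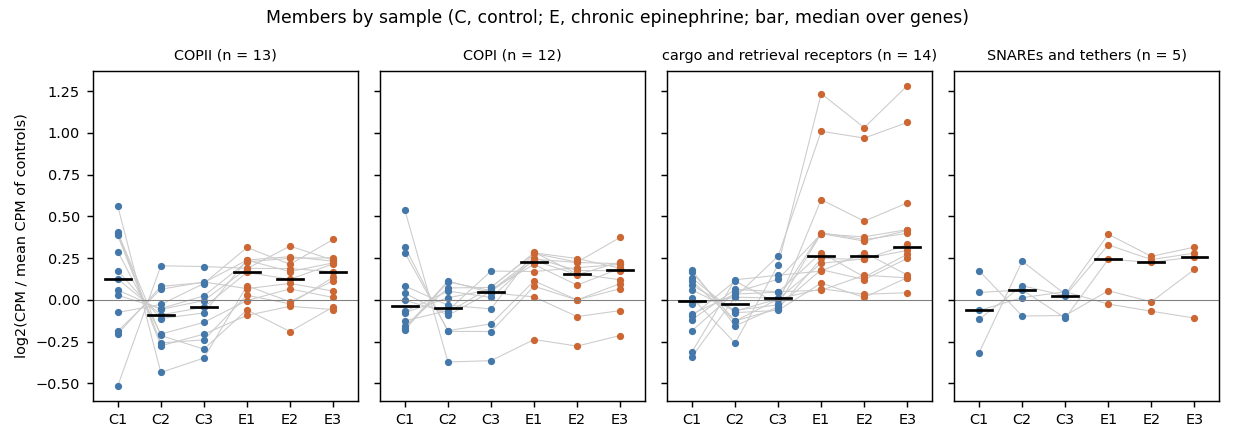
Log2 ratio of each member's CPM to its mean over the 3 controls (vertical axis) in each sample (horizontal axis), with 1 panel per gene group, points for genes, grey lines joining a gene and black bars for the median over genes. The receptor medians lie at 0.27 to 0.32 in the epinephrine samples and near 0 in the controls, while control 1 reaches 0.13 for COPII.

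The count of members called depended on the samples. Without control 1, 30 members were upregulated (68.2%, beside 12.1% of all genes) and none was downregulated (9.46% of all genes), and these calls rest on controls 2 and 3, the samples with hepatocyte transcripts. Without control 2 or control 3 the count was 2 each (0.683% and 1.17% of all genes), without epinephrine 1 it was 0 (0.341%), and without epinephrine 2 or 3 it was 1 each (0.357% and 0.555%). The share of all genes called thus fell in the same fits. DESeq2 called 8 members higher (3.09% of all genes it tested), namely the same 5 and Tmed2, Cope and Arcn1. When each sample was corrected for the length and GC content of transcripts, an alternative added with the data in view, 8 members were called (5.51% of all genes), of which 4 were among the 5. With a block for replicate number, 2 members were called higher (Kdelr3 and Tmed3), among 150 of the 12747 genes tested.

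Promoter sequences are shown for called receptors, coat subunits and coat-recruiting proteins, because the unfolded protein response is known to act through short promoter elements. RefSeq windows of the GRCm38.p6 assembly, from 250 bases before to 50 after the annotated start, were found for 39 of the 44 members, and none was found for Arcn1, Tmed2, Tmed7, Kdelr2 and Lman1. Each of 4 elements was searched on both strands. The letters TGACGTGG, the core of an element bound by the transcription factors XBP1 and ATF6, occurred in the windows of 7 members (17.9%). The 7 members were Kdelr3, Sec24d, Sec23a, Copb1, Copb2, Arf1 and Gbf1. Among all 27025 genes with a window, tested here or not, 193 held these letters (0.714%). Shares of genes for the other elements refer to the same set, which is not limited to expressed genes. The cyclic AMP response element TGACGTCA, which shares its first 6 letters with that core, occurred in Cope and Gosr2 (5.13% of members, 2.03% of genes). The ER stress response element (ERSE) occurred in no member and in 0.137% of genes, and its variant ERSE-II in no member and in 0.0444% of genes. Of these 9 genes only Kdelr3 was called, and a match of letters says nothing of binding.

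The 100 bases upstream of the start of 4 called genes and of 4 coat or coat-recruiting genes with the core element are given 5′ to 3′ on the strand of the gene, with the element or its reverse complement in capitals. Kdelr3 lies at chr15:79516308-79516407 (plus strand), Tmed3 at chr9:89705044-89705143 (minus), Mcfd2 at chr17:87265948-87266047 (minus), Tmed10 at chr12:85374718-85374817 (minus), Sec24d at chr3:123267396-123267495 (plus), Copb1 at chr7:114254681-114254780 (minus), Arf1 at chr11:59228163-59228262 (minus, 1 of 2 start sites) and Gbf1 at chr19:46152458-46152557 (plus).
Kdelr3: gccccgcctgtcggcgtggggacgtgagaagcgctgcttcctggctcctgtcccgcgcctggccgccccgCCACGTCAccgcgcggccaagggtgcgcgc
Tmed3: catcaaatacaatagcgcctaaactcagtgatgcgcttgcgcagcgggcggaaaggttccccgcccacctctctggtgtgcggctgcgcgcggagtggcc
Mcfd2: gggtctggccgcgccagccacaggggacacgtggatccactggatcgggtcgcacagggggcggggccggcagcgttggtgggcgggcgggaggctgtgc
Tmed10: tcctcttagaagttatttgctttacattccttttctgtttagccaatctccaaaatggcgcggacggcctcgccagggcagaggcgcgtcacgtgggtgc
Sec24d: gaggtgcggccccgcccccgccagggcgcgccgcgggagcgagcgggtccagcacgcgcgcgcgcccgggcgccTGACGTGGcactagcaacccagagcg
Copb1: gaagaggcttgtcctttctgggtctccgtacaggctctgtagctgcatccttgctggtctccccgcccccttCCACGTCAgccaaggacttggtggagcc
Arf1: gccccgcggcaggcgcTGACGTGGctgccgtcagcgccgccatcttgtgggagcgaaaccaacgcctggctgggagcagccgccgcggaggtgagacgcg
Gbf1: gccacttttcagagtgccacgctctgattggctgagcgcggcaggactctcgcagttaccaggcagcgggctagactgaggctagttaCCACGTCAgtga
Counted from the start site, the first base of the element lies at -30 in Kdelr3, -26 in Sec24d, -28 in Copb1, -84 in Arf1 and -12 in Gbf1. In Copb2 it lies at -7, and in Sec23a at 6 bases after the start.

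The KDEL receptors bind ER chaperones that have escaped to the Golgi and return them in COPI vesicles. Kdelr3 (ENSMUSG00000010830, chr15:79516411-79527739) showed the largest fold change of the 44 members. It was at 6.28, 5.20 and 7.20 CPM in the controls and at 14.6, 12.7 and 15.1 CPM after epinephrine, or 6.23 ± 0.999 against 14.2 ± 1.28 CPM (mean ± SD, n = 3 each). The lowest epinephrine sample lay well above the highest control. The fitted change was 1.19 on the log2 scale (SE 0.15, FDR 0.00621), a fold of 2.28. The call was kept in 5 of the 6 fits that left out 1 sample and was lost without epinephrine 1 (FDR 0.0577). Its exons overlap those of Ddx17 on the other strand, and the sources used here do not say whether the reads were counted by strand.

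Kdelr1 and Kdelr2, the abundant receptors of the family, gave smaller differences. Kdelr1 was at 166, 136 and 143 CPM in the controls and 176, 175 and 187 CPM after epinephrine (log2 fold change 0.27, FDR 0.197). Kdelr2 was at 219, 186 and 203 CPM in the controls and 236, 240.4 and 249 CPM after epinephrine (0.25, FDR 0.194). For both, the 3 epinephrine samples lay above the controls, with control 1 the closest to them. Without control 1 both passed the threshold, Kdelr1 at 0.36 (FDR 1.06e-05) and Kdelr2 at 0.31 (FDR 7.47e-05).

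The p24 proteins, encoded by the Tmed genes, cycle between ER and Golgi in both kinds of vesicle and act as receptors for membrane-anchored and secreted cargo. Tmed3 (ENSMUSG00000032353, chr9:89699206-89705068) was at 106, 136 and 161 CPM in the controls and at 270.1, 263 and 280.1 CPM after epinephrine, or 134 ± 27.5 against 271 ± 8.81 CPM. The controls were spread widely and the epinephrine samples closely, with no overlap. The change was 1.01 on the log2 scale (SE 0.14, FDR 0.00969), a fold of 2.02. The call was kept without control 1 (0.87) and without control 3, and it was lost without control 2 or any epinephrine sample, at an FDR of up to 0.0793.

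Tmed10 (ENSMUSG00000021248, chr12:85340614-85374847), which pairs with Tmed2 in a p24 complex, was at 267, 241 and 246 CPM in the controls and at 331, 321 and 335 CPM after epinephrine, or 251 ± 14.0 against 329 ± 7.42 CPM. Its change was 0.39 (SE 0.08, FDR 0.0471). This call was close to the threshold and was kept only without control 1 among the fits that left out a sample, with an FDR of up to 0.276 in the others. With all 6 samples it was also lost under DESeq2 size factors (FDR 0.0557), library size scaling (0.0785) and limma (0.0895 and 0.0939). No filter (0.0599), the length and GC correction (0.0841) and a block for replicate number (0.125) ended the call too. Tmed2 was the most abundant of the family, at 441, 517 and 546 CPM in the controls and 659, 651 and 672 CPM after epinephrine. The groups did not overlap, yet its change of 0.40 (SE 0.10) missed the threshold (FDR 0.0801), which it passed in DESeq2 (FDR 0.00566) and without control 1 (0.31, FDR 1.95e-05). Both genes share sequence with other genes. In Tmed10, 8.0% of the 50-base windows of its transcripts occur in a processed pseudogene. In Tmed2, 22.0% of the windows occur in other genes, among them processed pseudogenes and the protein-coding gene Rxylt1. The reads of both genes may thus have been split.

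The other p24 members gave log2 fold changes of 0.05 for Tmed4, 0.11 for Tmed7, 0.20 for Tmed5 and 0.23 for Tmed9, with FDR values of 0.210 to 0.799. In Tmed7, 12.1% of the 50-base windows also occur in other genes, and its exons overlap those of Ticam2 on the same strand. Its reads may therefore have been split, which also limits its share of the p24 sum. The value of Tmed5 depended on the unit and on control 1. It was 0.59 and 0.61 with limma on FPKM with either pseudocount (FDR 0.128 and 0.126) and 0.07 without control 1 (FDR 0.465). The controls and epinephrine samples of Tmed9 did not overlap, at 90.2 to 98.7 and 105 to 116 CPM, and those of Tmed4 overlapped, at 139 to 151 and 148 to 152 CPM. Of the 7 p24 members, 2 were called and 5 had groups without overlap, beside 2.02% and 14.3% of all genes. Further Tmed genes belong to the list of other transport genes below and are not counted here.

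Lman1 and Mcfd2 form a receptor for soluble glycoproteins, in which Lman1 (ERGIC-53) is the membrane lectin and Mcfd2 its soluble partner. Both rose. Mcfd2 (ENSMUSG00000024150, chr17:87254443-87265935) was at 61.2, 70.8 and 64.5 CPM in the controls and at 99.3, 90.8 and 97.9 CPM after epinephrine, or 65.5 ± 4.87 against 96.0 ± 4.57 CPM. Its change was 0.55 (SE 0.09, FDR 0.0166). Lman1 was at 399, 411 and 409 CPM in the controls and at 537, 521 and 535 CPM after epinephrine, or 406 ± 6.58 against 531 ± 8.36 CPM. Its change was 0.39 (SE 0.08, FDR 0.0359). The samples of each group lay close together for both genes, and the gap between the groups was wider than either spread. The call of Mcfd2 was kept without control 1 or control 2 and lost without control 3 or any epinephrine sample (FDR up to 0.149). That of Lman1 was kept only without control 1 (FDR up to 0.245 in the others). With all 6 samples, a block for replicate number ended both calls (FDR 0.0702 for Mcfd2 and 0.122 for Lman1).

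The other 2 receptors for soluble cargo differed less. Surf4, a receptor for a wide range of secreted proteins, was at 597, 474 and 513 CPM in the controls and 598.5, 574 and 627 CPM after epinephrine (0.18, FDR 0.411), so control 1 lay within the epinephrine range. Lman2, a lectin related to Lman1, was at 332, 288 and 290.5 CPM in the controls and 325, 307 and 333 CPM after epinephrine (0.08, FDR 0.689), and the groups overlapped in the same way. Without control 1 both passed the threshold, Surf4 at 0.28 (FDR 0.000189) and Lman2 at 0.15 (FDR 0.0300). A two-sided exact permutation of the samples reached p = 0.1 for each of the 5 called genes, and 3 samples against 3 allow no smaller value.

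**Figure D2:**
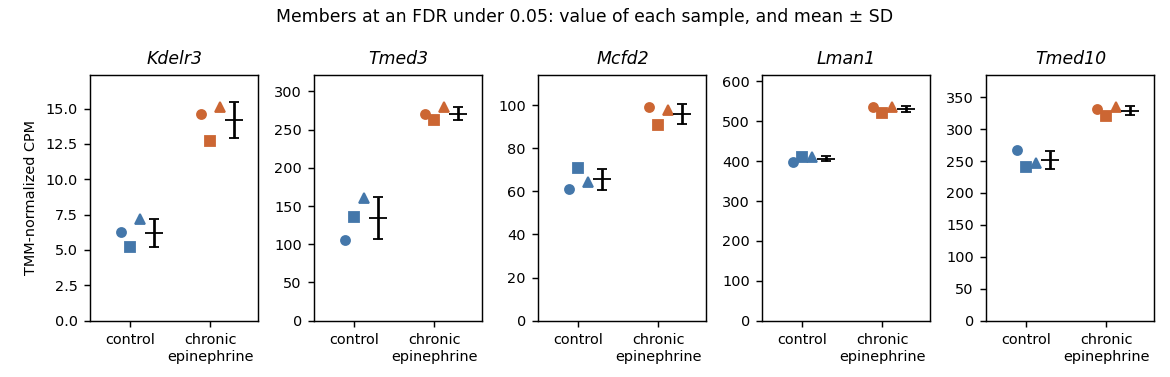
TMM-normalized CPM (vertical axis, from 0) of the 5 upregulated members in the control and chronic epinephrine samples, with a symbol for each replicate number and the mean ± SD (n = 3) beside them. In all 5 genes the epinephrine samples lie above the controls, from a fold of 2.28 for Kdelr3 to 1.31 for Lman1.

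None of the 13 COPII genes passed the threshold, and 4 were higher at an unadjusted p under 0.05 (9.19% of all genes). The GTPase genes were Sar1a, at 199, 242 and 246 CPM in the controls and 269.9, 257 and 267 CPM after epinephrine (0.21, FDR 0.339), and Sar1b, at 50.2, 82.5 and 82.3 CPM in the controls and 81.7, 81.6 and 80.5 CPM after epinephrine (0.18, FDR 0.644). In Sar1b control 1 alone lay apart, and without that sample its change was -0.02 (FDR 0.849). The change of Sar1a without control 1 was 0.12 (FDR 0.0950). Preb, which encodes the Sar1 exchange factor Sec12, was at 73.0 to 84.7 CPM and 84.6 to 90.1 CPM (0.17, FDR 0.376).

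In the inner coat, Sec23b and Sec24a were the genes without overlap between the groups. Sec23b, one of 2 Sec23 genes, was at 131, 107 and 109.8 CPM in the controls and 137, 139 and 136 CPM after epinephrine (0.24, FDR 0.248). Sec24a, one of 4 cargo-selecting Sec24 genes, was at 42.4 to 46.0 CPM in the controls and 50.2, 55.1 and 52.0 CPM after epinephrine (0.25, FDR 0.177). Sec23a differed little, at 31.1 to 38.1 CPM and 36.7 to 37.9 CPM (0.07, FDR 0.758). For Sec24b, Sec24c and Sec24d control 1 lay above every epinephrine sample and controls 2 and 3 did not. Sec24c, for example, was at 217 CPM in control 1, 141 and 134 CPM in controls 2 and 3, and 157, 144 and 159 CPM after epinephrine (-0.10, FDR 0.823). Without control 1 its sign turned to 0.16 (FDR 0.0469), and Sec24b and Sec24d moved from 0.05 and 0.03 to 0.29 and 0.20.

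In the outer coat, Sec13 was at 73.4, 75.9 and 82.8 CPM in the controls and 96.1, 89.7 and 99.4 CPM after epinephrine, the largest fold change of the COPII genes (0.30, SE 0.09, FDR 0.127). Its partner Sec31a was at 359.7, 228 and 239 CPM in the controls and 258, 268 and 265 CPM after epinephrine (-0.06, FDR 0.878), and without control 1 its change was 0.18 (FDR 0.0116). Tfg and Sec16a organise the exit site. Tfg was at 82.7, 78.2 and 82.5 CPM in the controls and 95.0, 96.4 and 96.6 CPM after epinephrine (0.24, SE 0.08, FDR 0.151), with a narrow spread in both groups. Sec16a was at 199.8, 100.2 and 106 CPM in the controls and 144, 134 and 147 CPM after epinephrine (0.06, SE 0.24, FDR 0.919). No other member had control 1 so far above controls 2 and 3, at 1.93-fold, and without control 1 the change of Sec16a was 0.45 (FDR 8.02e-07). Without that sample 10 of the 13 COPII genes passed the threshold (12.1% of all genes), Sar1a, Sar1b and Sec23a being the exceptions, and the median change over all 13 was 0.23.

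None of the 12 COPI genes passed the threshold either, 4 were higher at an unadjusted p under 0.05 (9.19% of all genes), and 7 had groups without overlap (14.3%). The coatomer is built from 7 kinds of subunit. Cope, the ε subunit, was at 110.4, 105 and 117 CPM in the controls and 134, 129 and 143 CPM after epinephrine (0.29, SE 0.08, FDR 0.121). Arcn1, the δ subunit, was at 398, 433 and 421 CPM in the controls and 494, 487 and 485 CPM after epinephrine (0.23, SE 0.08, FDR 0.187). These 2 genes were the COPI genes that DESeq2 called. Copb2, the β′ subunit, was at 281, 329.6 and 330.4 CPM in the controls and 381, 372 and 358 CPM after epinephrine (0.24, FDR 0.231). Copb1, the β subunit, was at 219 to 267 CPM and 279.5 to 295 CPM (0.20, FDR 0.338), and without control 1 its change was 0.12 (FDR 0.0920).

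Copa and Copg1, the α subunit and one γ subunit, had control 1 above every epinephrine sample, as Sec31a did. Copa was at 570.3, 413 and 425 CPM in the controls and 508, 469 and 492 CPM after epinephrine (0.06, FDR 0.849). Copg1 was at 345, 243 and 243 CPM in the controls and 293, 276 and 296 CPM after epinephrine (0.06, FDR 0.860). Without control 1 both passed the threshold, at 0.22 (FDR 0.00141) and 0.25 (FDR 0.000577). Copg2, the other γ subunit, was at 75.8, 92.2 and 87.7 CPM in the controls and 86.3, 79.5 and 81.5 CPM after epinephrine (-0.05, FDR 0.837), and without control 1 it was at -0.13 (FDR 0.124). The ζ subunits Copz1 (0.19, FDR 0.362) and Copz2 (0.19, FDR 0.404) also missed the threshold. With the correction for length and GC content the change of Copz2 was 0.03 (FDR 0.927).

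Of the GTPases that recruit the coatomer, Arf1 was at 411, 437 and 452 CPM in the controls and 502, 460.3 and 493 CPM after epinephrine (0.16, FDR 0.362). Of the windows of its transcripts, 10.5% occur in processed pseudogenes. Arf4 was at 222, 203 and 224 CPM in the controls and 255, 239.9 and 253 CPM after epinephrine (0.20, FDR 0.252). With the correction for length and GC content the changes were 0.10 for Arf1 (FDR 0.344) and 0.08 for Arf4 (FDR 0.732). Neither gene had overlapping groups. Gbf1, the exchange factor of Arf1 at the early Golgi, was at 284, 151 and 152 CPM in the controls and 166, 162 and 169 CPM after epinephrine. Its change of -0.24 (SE 0.23, FDR 0.632) was the lowest of the 44 members and rested on control 1, without which it was 0.13 (FDR 0.0855). Without control 1, 6 of the 12 COPI genes passed the threshold (12.1% of all genes).

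SNAREs drive membrane fusion and tethers hold a vesicle to its target before fusion. Among these 5 genes none passed the threshold, and Sec22b, Bet1 and Uso1 had groups without overlap (14.3% of all genes). Sec22b, a SNARE of ER-derived vesicles, was at 75.0, 86.2 and 82.7 CPM in the controls and 102, 96.0 and 98.6 CPM after epinephrine (0.28, FDR 0.140). Bet1, a SNARE of the same fusion step, was at 29.6, 43.2 and 37.7 CPM in the controls and 48.3, 44.1 and 45.8 CPM after epinephrine (0.32, SE 0.13, FDR 0.272). Without control 1 the change of Bet1 was 0.19 (FDR 0.0676). Uso1 (p115), a tether, was at 231, 233 and 208 CPM in the controls and 265, 262 and 268 CPM after epinephrine (0.24, FDR 0.186). Gosr2, another SNARE, was at 215, 226 and 232 CPM in the controls and 220.4, 214 and 208 CPM after epinephrine (-0.07, FDR 0.716). Golga2 (GM130), a tether of the cis-Golgi, was at 88.1 to 106 CPM and 93.5 to 107 CPM (0.08, FDR 0.752). Without control 1, Sec22b, Uso1 and Golga2 were called (12.1% of all genes).

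**Figure D3:**
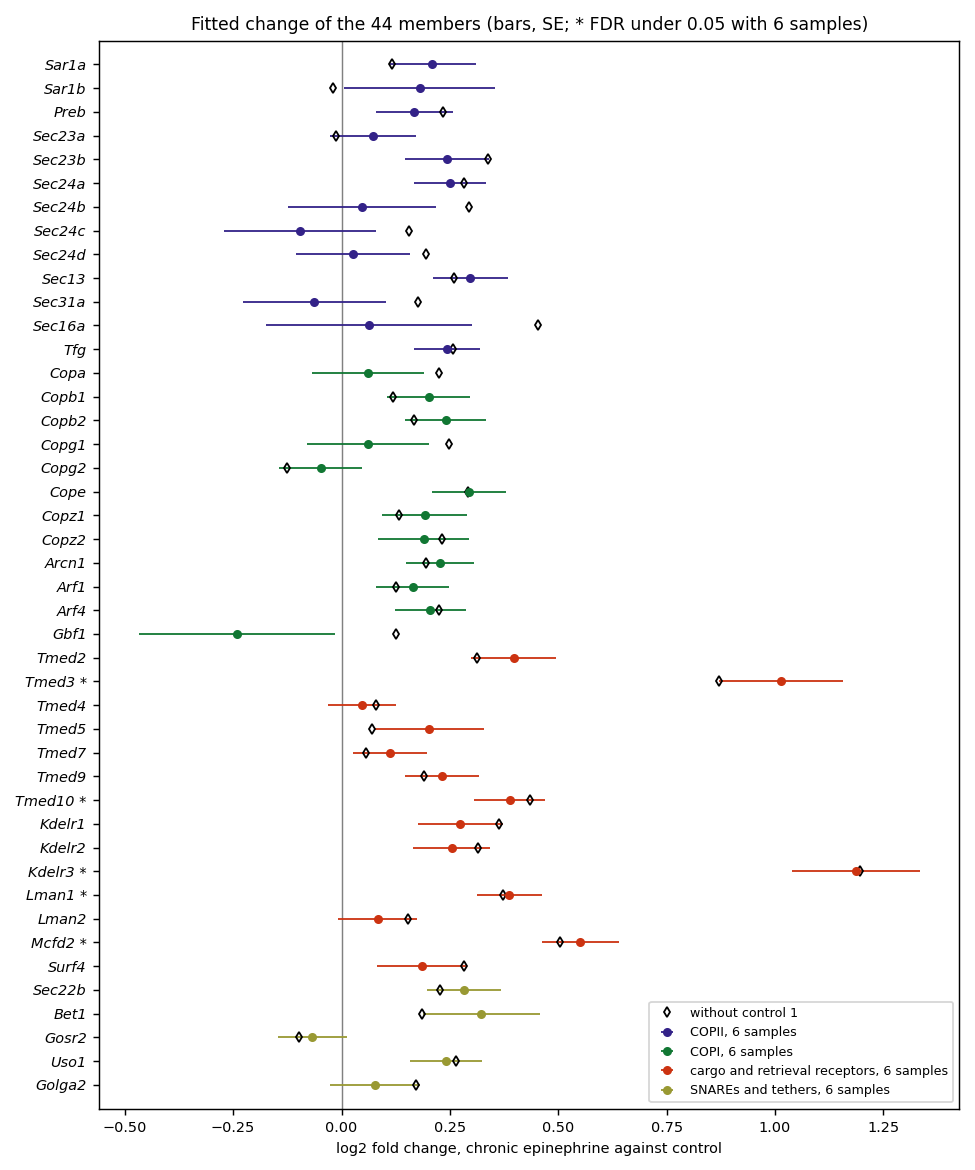
Fitted log2 fold change of chronic epinephrine against control (horizontal axis) for each of the 44 members, as points with bars of 1 SE, coloured by gene group, and as open diamonds for the fit without control 1. The 5 called genes (asterisks) are all receptors, and the diamonds of Sec16a, Sec31a, Sec24b, Sec24c, Sec24d, Copa, Copg1 and Gbf1 lie to the right of their points.

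The position of control 1 among the controls varied with the properties of the transcript. It was the highest control for 20 members and the lowest for 20, and for Sec24b, Sec24c, Sec24d, Sec31a, Sec16a, Copa, Copg1 and Gbf1 it lay above every epinephrine sample. Over all genes with a known length it was the highest control for 43.1% and the lowest for 44.4%, beside 45.5% of the members for each, and it lay above every epinephrine sample for 39.7%, beside 18.2% of the members. Of the 15 members whose longest annotated transcript exceeds 4000 bases, 11 had control 1 as the highest control (73.3%, beside 58.7% of all genes of that length), and of the 16 under 2500 bases, 9 had it as the lowest (56.2%, beside 64.0%). Across members, the difference between control 1 and the mean of controls 2 and 3 had a Spearman's rho of 0.45 with transcript length and 0.55 with GC content (n = 44). Over 12742 genes the values were 0.39 and 0.43. For control 2 against control 3 they were 0.31 and -0.38 across members. These correlations are across genes of the same libraries, which are not independent replicates, and length and GC content are themselves features of the same transcripts. Without control 1 the log2 fold changes of the 5 called receptors were 1.20 for Kdelr3, 0.87 for Tmed3, 0.50 for Mcfd2, 0.37 for Lman1 and 0.43 for Tmed10, beside 1.19, 1.01, 0.55, 0.39 and 0.39 with all 6 samples.

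**Figure D4:**
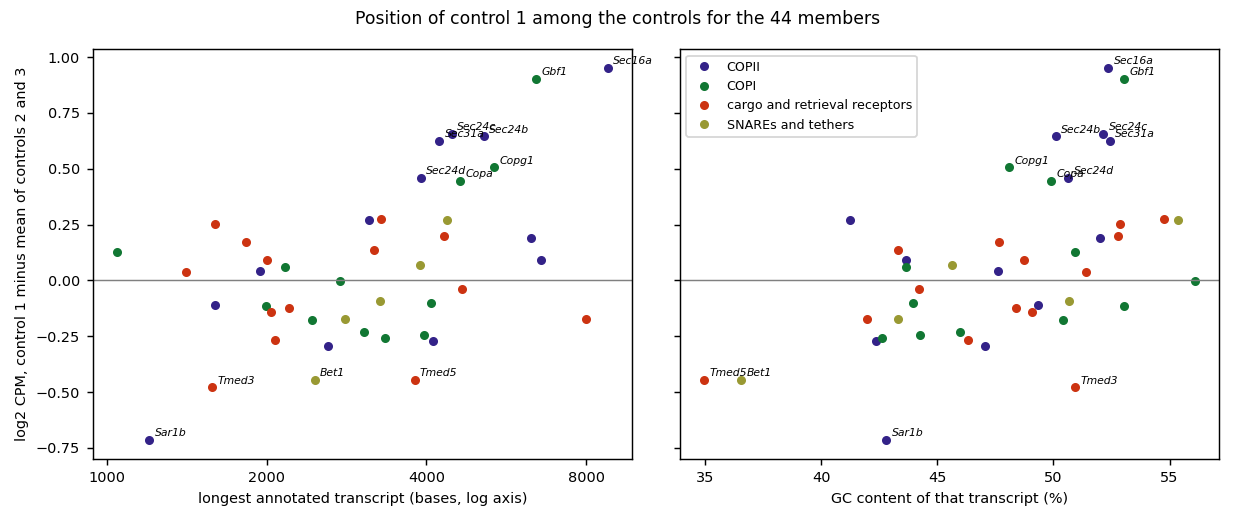
Log2 CPM of control 1 minus the mean of controls 2 and 3 (vertical axis) for the 44 members, against the length of the longest annotated transcript (left, log axis) and its GC content in percent (right), coloured by gene group. Sec16a and Gbf1 lie highest, at 1.93-fold and 1.87-fold, and Sar1b lowest, at 0.609-fold.

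Levels between genes were compared on FPKM, the deposited value that is scaled to transcript length. The median member was at 69.0 FPKM in the control group, beside 10.4 FPKM for all genes tested. Tmed2 (265 ± 39.8 FPKM) and Arf1 (242 ± 7.69 FPKM) were the highest and did not differ beyond their spread, and they were followed by Tmed10 (171 ± 12.4) and Surf4 (164 ± 21.9), which also lay within each other's spread. The lowest were Kdelr3 (4.45 ± 0.704 FPKM), Sec24a (7.62 ± 0.367) and Sec23a (9.37 ± 0.681). Kdelr3 was at 9.95 ± 0.938 FPKM after epinephrine. In the coatomer the order by mean was Copa (105 ± 20.4 FPKM), Copb2 (104 ± 7.61), Arcn1 (103 ± 3.03), Cope (88.5 ± 4.30), Copb1 (74.6 ± 6.52), Copz1 (73.8 ± 7.39) and Copg1 (71.4 ± 15.1). The SDs of the first 3 overlapped, as did those of the last 3, and the wide SDs of Copa and Copg1 met each other and that of Cope. The paralogues Copg2 (24.1 ± 2.10) and Copz2 (15.3 ± 1.39) were lower than Copg1 and Copz1.

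A list of 63 further genes of ER and Golgi transport, among them the TRAPP tethers, the other SNAREs, Arf and Rab GTPases and Golgi matrix proteins, was read for comparison, and 60 of them were tested. Of these, 2 were upregulated (3.33%, beside the 2.02% of all genes) and none was downregulated, 14 were higher and 2 lower at an unadjusted p under 0.05 in edgeR (9.19% and 7.91% of all genes), and DESeq2 called 5 higher and 1 lower (3.09% and 1.98%). The median log2 fold change was 0.14. All 3 epinephrine samples lay above the controls for 24 of the 60 genes (40%, beside 14.3% of all genes). They lay below the controls for 2 (13% of all genes). The change was above 0 for 46 genes and below 0 for 14, beside 49.5% of all genes above 0. Higher values in the epinephrine samples were thus not particular to the 44 members. Sec16b, a paralogue of the exit site scaffold Sec16a, was at 18.8, 21.3 and 21.5 CPM in the controls and 39.0, 35.8 and 40.7 CPM after epinephrine. Its change of 0.90 (SE 0.10, FDR 0.00384) was called in all 6 fits that left out 1 sample. Yif1b, a membrane protein of early Golgi traffic, was at 39.9, 43.8 and 49.4 CPM in the controls and 69.7, 63.4 and 67.4 CPM after epinephrine (0.59, SE 0.10, FDR 0.0208), and was called in 2 of those 6 fits. For both genes the groups did not overlap. Without control 1, 22 genes of this list were called higher and 4 lower, beside 12.1% and 9.46% of all genes.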

How the data were processed

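Total RNA of 3 control and 3 chronic epinephrine samples of MIN6 cells was sequenced on an Illumina instrument. The table the authors deposited holds an expected count per gene and sample, not normalized between samples and not whole for 8.34% of values, and an FPKM value, scaled to transcript length and library total. The submitters' processing notes name GRCm38, and the aligner and counter are not given in the sources used here. Columns of the authors' own comparison and annotation were not used.

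Expected counts were rounded, and 12747 genes kept by filterByExpr were scaled by TMM and compared between epinephrine and control with the quasi-likelihood F-test (edgeR 4.0.16, R 4.3.3). FDR values (Benjamini-Hochberg) cover all of these genes. The SE is the log2 fold change divided by the square root of F. Principal components used log2 CPM with a prior count of 2. Counting error alone sets the limit of 3 counts. The procedure was tested on simulated data with a common dispersion for all genes. The simulation held no outlying library and no effect of length or GC content, so it does not cover the behaviour of control 1. The members and lists were chosen with earlier results of these data known, and members were compared by counts and medians only. Per-sample values are given for members at an FDR under 0.05 and for at least 1 of each role. Genes outside the members are named from the other transport list at an FDR under 0.05, or as markers, some of which are not reported here. Of 22298 gene identifiers, 22255 were found in GENCODE release M21, used for positions, length and shared sequence. Promoter windows are from RefSeq.

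The alternatives were scaling by DESeq2 size factors, upper quartile or library size, the Wald test (DESeq2 1.42.0), limma 3.58.1 on log2(FPKM + 1) and log2(FPKM + 0.1), no filter, at least 10 counts in every sample, a replicate block and each sample left out. A correction of each sample for the length and GC content of transcripts (a spline with 4 degrees of freedom each) was added with the data in view.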

Additional observations from a re-analysis of the deposited data

How the results depend on the processing

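No member was called lower under any of the 16 alternatives. Leaving out a sample moved the counts of calls most. The members called ranged from 0 (without epinephrine 1) to 30 (without control 1), those of at least 2-fold from 0 to 2, COPII genes from 0 to 10, COPI genes from 0 to 6, receptors from 0 to 11, and SNAREs and tethers from 0 to 3, while all genes ranged from 44 to 1572 higher and from 1 to 1226 lower. The medians moved less, over 0.18 to 0.23 for all members, 0.12 to 0.23 for COPII, 0.16 to 0.21 for COPI, 0.24 to 0.31 for the receptors and 0.19 to 0.26 for SNAREs and tethers. The cause was not tested.

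The Wald test of DESeq2 gave 444 genes higher and 285 lower, 8 members and 2 COPI genes. The correction for length and GC content, which was chosen after seeing the data, gave 702 genes higher and 627 lower, 8 members, 1 of them at least 2-fold, 1 COPII and 2 COPI genes, with medians of 0.15 for members, 0.11 for COPI and 0.19 for receptors. Library size scaling left 1 member at least 2-fold and a receptor median of 0.24. With limma, log2(FPKM + 1) left 1 member at least 2-fold, and both pseudocounts gave a receptor median of 0.30. No scaling moved the median of all genes by more than 0.03. The number of members without overlap was 23 to 26 under the other scalings (12.3 to 13.8% of all genes) and 25 to 37 with a sample left out (17.3 to 24.05%), where fewer samples make it easier to meet.

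Signs turned for Sec24d with library size (-0.0042) and for Tmed4 with the correction for length and GC content (-0.049). With a sample left out, values ran over -0.020 to 0.29 for Sar1b, -0.012 to 0.13 for Sec23a, -0.075 to 0.29 for Sec24b, -0.22 to 0.16 for Sec24c, -0.075 to 0.20 for Sec24d, -0.19 to 0.18 for Sec31a, -0.12 to 0.45 for Sec16a, -0.032 to 0.22 for Copa, -0.034 to 0.25 for Copg1, -0.13 to 0.0048 for Copg2 and -0.41 to 0.13 for Gbf1.

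Replicate numbers were not treated as pairs, since deviations of samples with the same number correlated at 0.0502, 0.0677 and -0.0488. The replicate block gave 150 genes higher and 28 lower and 2 members, Kdelr3 and Tmed3, and the FDR was 0.0702 for Mcfd2, 0.122 for Lman1 and 0.125 for Tmed10.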

Other observations

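Where a function is shared by paralogues, the share of each in the summed FPKM of the members of its family describes the make-up of the machinery. Among the 7 p24 members, Tmed3 made up 12.9% ± 1.59 of the sum in the control group and 19.8% ± 0.438 after epinephrine (SD, n = 3 each). The groups did not overlap (exact permutation p = 0.1, the smallest possible). Tmed genes outside the members were not in the sum. The total of these members went from 775 to 1008 FPKM. The shares of Tmed4, Tmed7 and Tmed9 were lower without overlap, at 9.48% against 7.36%, 10.3% against 8.38% and 8.78% against 7.77%. These shares fell because the total rose by more than the genes did. Their own mean FPKM was not lower, at 73.1 against 74.1, 79.5 against 84.5 and 67.9 against 78.3. The share of Kdelr3 among the KDEL receptors was 2.09% ± 0.309 in the control group and 3.84% ± 0.269 after epinephrine, also without overlap (exact permutation p = 0.1). The share of Kdelr2 was lower without overlap, at 52.6% against 50.6%, and that of Kdelr1, at 45.3% against 45.6%, overlapped. The mean FPKM of Kdelr2 itself was higher after epinephrine, at 112 against 131, in a total that went from 213 to 259 FPKM.

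In the coat families the shares overlapped between the groups for every gene but Sec24b. Sec23b made up 84.7% ± 2.37 of the Sec23 transcripts in the control group and 86.4% ± 0.261 after epinephrine, Copg1 74.3% ± 5.23 and 76.5% ± 0.594 of the γ subunits, and Sar1a 63.7% ± 4.12 and 64.4% ± 0.952 of the Sar1 transcripts, each with overlapping groups. Among the Sec24 genes the order was Sec24c, Sec24d, Sec24b and Sec24a in both groups, and the share of Sec24b, at 17.2% ± 0.585 and 18.2% ± 0.466, was the one without overlap (exact permutation p = 0.1).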
